A study of Rattus norvegicus with 23 samples.

Results

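Acsm3, long known as the SA gene of hypertensive rats, was read on the arrays by 1 probe set, the only one among 31099 whose single gene symbol is Acsm3. The deposited data hold kidney RNA of 23 male rats, 1 array per sample, all fed standard chow and examined at 4 months of age. SBH/y is known as the hypertension-prone and SBN/y as the hypertension-resistant line of the Sabra rat. The groups were SBH/y rats with 1 kidney, 3 months after right uninephrectomy (6 rats), SBH/y rats with 2 kidneys after a sham operation (6 rats), SBN/y rats with 1 kidney (6 rats) and sham-operated SBN/y rats with 2 kidneys (5 rats). No salt load, drug or transgene is named for any group. Beyond the sample names nothing in the labels ties each array to its own rat, so the spread behind each p-value is that between samples and may be partly technical. Which kidney of the 2-kidney rats was used is not given in the labels.

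ACSM proteins are mitochondrial ligases that join medium-chain fatty acids, and some aromatic acids, to coenzyme A, which is the entry step to their oxidation or to their conjugation with glycine. In rodents the kidney and the liver are the main sites of the family, and in the kidney the SA transcript is known from the proximal tubule. The gene drew interest because its renal mRNA is more abundant in the spontaneously hypertensive rat than in normotensive control strains.

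The RefSeq annotation (assembly GRCr8) places Acsm3 on chromosome 1, on the plus strand, in a row with its relatives Acsm5, Acsm2, Acsm1 and Acsm4. It also places Acsm3 wholly inside the span of Eri2, a gene of the minus strand that encodes a member of the ERI1 exoribonuclease family. The promoter windows of the pair, 250 bases before to 50 bases after each start site, are printed because their readings moved together in these kidneys, as given further on. They come from RefSeq and are written 5′ to 3′ on each gene's own strand, with capitals for the motif matches described next.
Acsm3, GRCr8 chr1:183564402-183564701, plus strand: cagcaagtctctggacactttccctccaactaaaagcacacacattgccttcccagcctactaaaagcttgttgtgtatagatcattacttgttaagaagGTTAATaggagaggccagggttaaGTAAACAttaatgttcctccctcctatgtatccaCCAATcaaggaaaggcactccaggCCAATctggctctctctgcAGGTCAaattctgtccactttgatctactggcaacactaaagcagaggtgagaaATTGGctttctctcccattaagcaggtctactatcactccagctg
Eri2, GRCr8 chr1:183599937-183600236, minus strand: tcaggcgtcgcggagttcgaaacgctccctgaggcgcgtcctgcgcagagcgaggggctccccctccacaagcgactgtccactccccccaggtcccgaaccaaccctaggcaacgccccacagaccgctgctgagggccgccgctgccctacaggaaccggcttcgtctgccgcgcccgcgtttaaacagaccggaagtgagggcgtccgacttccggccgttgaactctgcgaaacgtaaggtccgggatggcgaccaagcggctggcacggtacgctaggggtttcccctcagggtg

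The 2 windows differ in composition, with 44.7% G and C in that of Acsm3 and 67.0% in that of Eri2, against a median of 52.3% over 27457 RefSeq promoter windows of rat genes. In all, 6 motifs were searched on both strands. The Acsm3 window holds AGGTCA, a recognition unit of nuclear receptors, 49 bases before the start site, and 15.7% of all windows hold that motif. It holds GTTAAT, part of the HNF1 site, 150 bases before the start (7.37% of all windows), and GTAAACA, the forkhead core, 126 bases before it (3.76%). CCAAT occurs 3 times, 92 and 68 bases before the start and, on the other strand, 5 bases after it, and 37.7% of all windows hold at least 1. TATAAA (14.3% of all windows) and CACGTG (6.65%) did not match in either window, and none of the 6 motifs matched in that of Eri2. No matches overlapped. These are matches of letters in the reference genome and say nothing of binding.

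Acsm3 fell in the remaining kidney of SBH/y rats, and it stood apart there from every other array. The 6 SBH/y rats with 1 kidney read 8.39, 8.23, 8.59, 8.59, 8.65 and 8.68 on the log2 scale of the deposited RMA values. The 6 SBH/y rats with 2 kidneys read 9.24, 9.16, 9.02, 8.90, 8.96 and 8.97. All 6 rats with 1 kidney lay under all 6 rats with 2, and replicate 2 was the lowest. In SBN/y, the 6 rats with 1 kidney read 9.11, 9.13, 9.31, 9.20, 9.21 and 9.06, and the 5 rats with 2 kidneys 9.09, 9.06, 9.06, 9.10 and 9.05. The SBN/y groups overlapped, and the 5 sham-operated rats were nearly alike. Over all arrays, SBH/y with 1 kidney reached at most 8.68, and the 17 arrays of the other groups started at 8.90, a gap of 0.225.

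**Figure D1:**
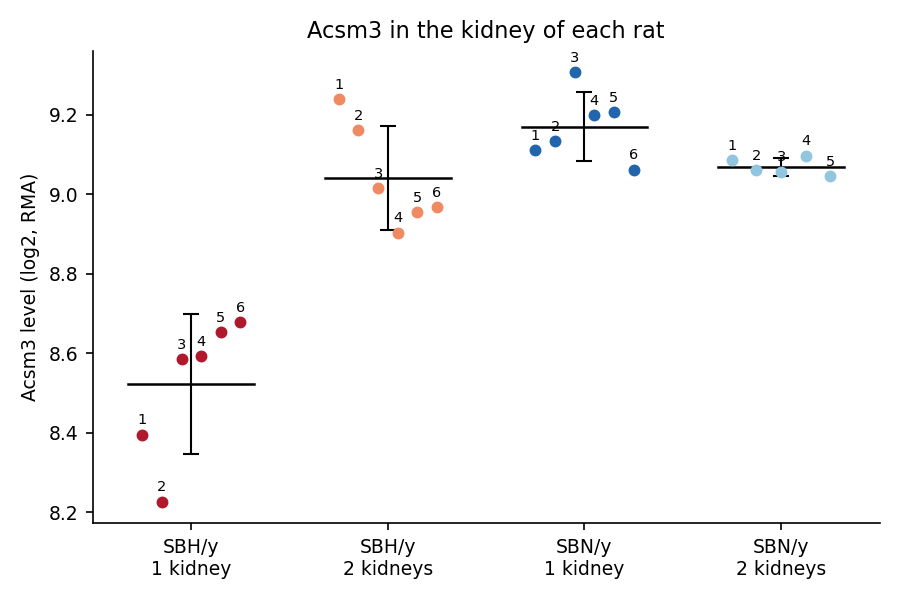
Acsm3 level (log2, vertical axis) in each rat of the 4 groups. Points are rats with their replicate numbers, the long line is the group mean and the bars are ± SD; the 6 SBH/y rats with 1 kidney sit between 8.23 and 8.68, under the 17 others (8.90 to 9.31).

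Acsm3 averaged 8.52 ± 0.18 (SD, n = 6) in SBH/y with 1 kidney and 9.04 ± 0.13 (SD, n = 6) in SBH/y with 2 kidneys. The difference was -0.52 ± 0.07 log2 (SE), a level 1.43 times lower (95% interval 1.30 to 1.58), at an adjusted p of 2.65e-05 by limma. In this comparison 1.97% of the 31042 probe sets tested were called lower and 5.04% were called in either direction, and Acsm3 ranked at place 87 by p. An exact two-sided permutation test on Acsm3 alone gave p = 0.00216, the smallest that 924 arrangements can give.

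In SBN/y the small difference went the other way and did not pass the test across probe sets. Acsm3 averaged 9.17 ± 0.09 (SD over 6 rats) in SBN/y with 1 kidney and 9.07 ± 0.02 (SD over 5 rats) in SBN/y with 2, a difference of 0.10 ± 0.07 (SE; 95% interval -0.05 to 0.25) at an adjusted p of 0.857 from limma, where 0.168% of probe sets passed. The exact permutation test on this 1 value gave p = 0.0281. These p-values are not alike, since that of limma is adjusted over all probe sets and that of the permutation test is not. Before adjustment the limma p was 0.184. The limma fit also shares 1 estimate of the spread over all 4 groups, whereas the permutation test uses the narrow spread of the SBN/y arrays alone. With only the SBN/y arrays in the limma fit, the adjusted p was 0.652.

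The uninephrectomy difference of Acsm3 itself differed between the strains. It was more negative in SBH/y than in SBN/y by 0.62 ± 0.10 (difference -0.62, SE; 95% interval -0.83 to -0.41), at an adjusted p of 0.00402 from limma. That comparison called 0.254% of probe sets, 79 in all, of which 14 (0.0451% of those tested) were more negative in SBH/y. Acsm3 was at place 15 by p among all probe sets and, among those 14, at place 4 by p and at place 9 by size.

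The strain difference of Acsm3 was likewise seen with 1 kidney and not detected with 2. With 1 kidney, SBH/y was lower than SBN/y by 0.65 ± 0.07 (difference -0.65, SE; adjusted p = 8.77e-08 with limma, 14% of probe sets called and 6.43% called lower), a level 1.57 times lower (95% interval 1.42 to 1.73). The exact permutation p was again 0.00216, and the groups did not overlap. With 2 kidneys, SBH/y minus SBN/y was -0.03 ± 0.07 (SE; adjusted p = 0.902, 9.07% called), with a 95% interval from -0.18 to 0.12, and the exact permutation p was 0.656. In order of their means the groups ran from SBH/y with 1 kidney through SBH/y with 2 kidneys and SBN/y with 2 kidneys to SBN/y with 1 kidney. Of the neighbours in that order, only the first pair differed by the limma test. These comparisons share samples and are not independent of each other.

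Acsm3 was read well above the dim end of the arrays. Its lowest array, at 8.23, lay far over the median probe set (4.67), and 95.5% of the tested probe sets had a lower mean. With the difference between the 3′ and 5′ GAPDH control signals (3′ minus 5′, a measure of RNA integrity) as a covariate, the SBH/y difference was -0.44 (adjusted p = 0.000206 with limma) and the interaction -0.65 (adjusted p = 0.000862). That GAPDH measure itself averaged (± SD) 0.533 ± 0.109 (n = 6) in SBH/y with 1 kidney, 0.460 ± 0.056 (n = 6) in SBH/y with 2, 0.451 ± 0.043 (n = 6) in SBN/y with 1 and 0.352 ± 0.032 (n = 5) in SBN/y with 2. Replicate 2 of SBH/y with 1 kidney and replicate 3 of SBH/y with 2 kidneys lay at the ends of the second principal component of all probe sets. Without both, the SBH/y difference of Acsm3 was -0.46 (adjusted p = 0.000121 with limma) and the interaction -0.57 (adjusted p = 0.00579).

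The brighter of the Eri2 probe sets followed Acsm3 closely. It read 7.32, 7.38, 7.56, 7.66, 7.45 and 7.68 in SBH/y with 1 kidney, against 8.31, 8.33, 8.01, 8.0, 7.98 and 8.01 in SBH/y with 2 kidneys, with no overlap. In SBN/y it read 8.06, 8.03, 8.24, 8.30, 8.30 and 8.28 with 1 kidney and 8.13, 7.93, 7.88, 7.96 and 8.10 with 2 kidneys, where the groups overlapped. As for Acsm3, the SBH/y rats with 1 kidney lay under all other rats, and replicates 1 and 2 of SBH/y were the highest with 2 kidneys and the lowest with 1.

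This Eri2 probe set differed by -0.60 ± 0.08 (SE) in SBH/y and by 0.20 ± 0.08 in SBN/y (adjusted p = 1.48e-05 and 0.523, limma), with an interaction of -0.80 ± 0.11 (adjusted p = 0.000762). With 1 kidney SBH/y was -0.69 ± 0.08 from SBN/y, and with 2 kidneys 0.11 ± 0.08 (adjusted p = 0.539). The log2 ratio of Acsm3 to it within each array was 1.01 ± 0.12 (SD, n = 6) in SBH/y with 1 kidney and 0.933 ± 0.059 (SD, n = 6) in SBH/y with 2. It moved by 0.08, a shift not told from 0 by an exact permutation test (p = 0.184; 0.247 adjusted over 12 such tests), which does not show that the ratio was constant.

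The dimmer Eri2 probe set gave a weaker picture. It averaged 4.43 ± 0.25 in SBH/y with 1 kidney and 4.63 ± 0.28 in SBH/y with 2 (SD, n = 6 each), close to the median probe set. Its SBH/y difference was -0.21 ± 0.12 (SE; adjusted p = 0.415 with limma) and its interaction -0.38 ± 0.17 (adjusted p = 0.544), and with 1 kidney it was lower in SBH/y than in SBN/y (-0.39 ± 0.12; adjusted p = 0.0220), a call that 4 alternative fits lost. The positions of the probes are not in the files used here. Whether the brighter Eri2 probe set reads Eri2 RNA alone, or RNA that runs across the shared stretch, was not tested.

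Of the other neighbours with a named probe set among the 8 nearest genes on each side, those outside the ACSM family did not pass limma for uninephrectomy. Thumpd1, whose protein helps to acetylate tRNA, averaged 8.16 ± 0.16 in SBH/y with 1 kidney and 8.14 ± 0.17 in SBH/y with 2 (SD, n = 6 each; difference 0.02 ± 0.09, SE). Lyrm1 differed by 0.11 ± 0.06 and Ldaf1, a gene of lipid droplet assembly, by -0.01 ± 0.06 in SBH/y, none of the 3 past the limma test. In SBN/y they differed by 0.07 ± 0.09, -0.12 ± 0.07 and -0.01 ± 0.06, none past it either. Lyrm1 thus went opposite ways in the strains, with an interaction of 0.23 ± 0.09 that did not pass (adjusted p = 0.462, limma). Thumpd1 was lower in SBH/y than in SBN/y with 1 kidney (-0.29 ± 0.09; adjusted p = 0.0210; lost in 5 of 31 alternative fits), and 1 uncharacterised neighbour passed in the same comparison at a dim level.

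**Figure D2:**
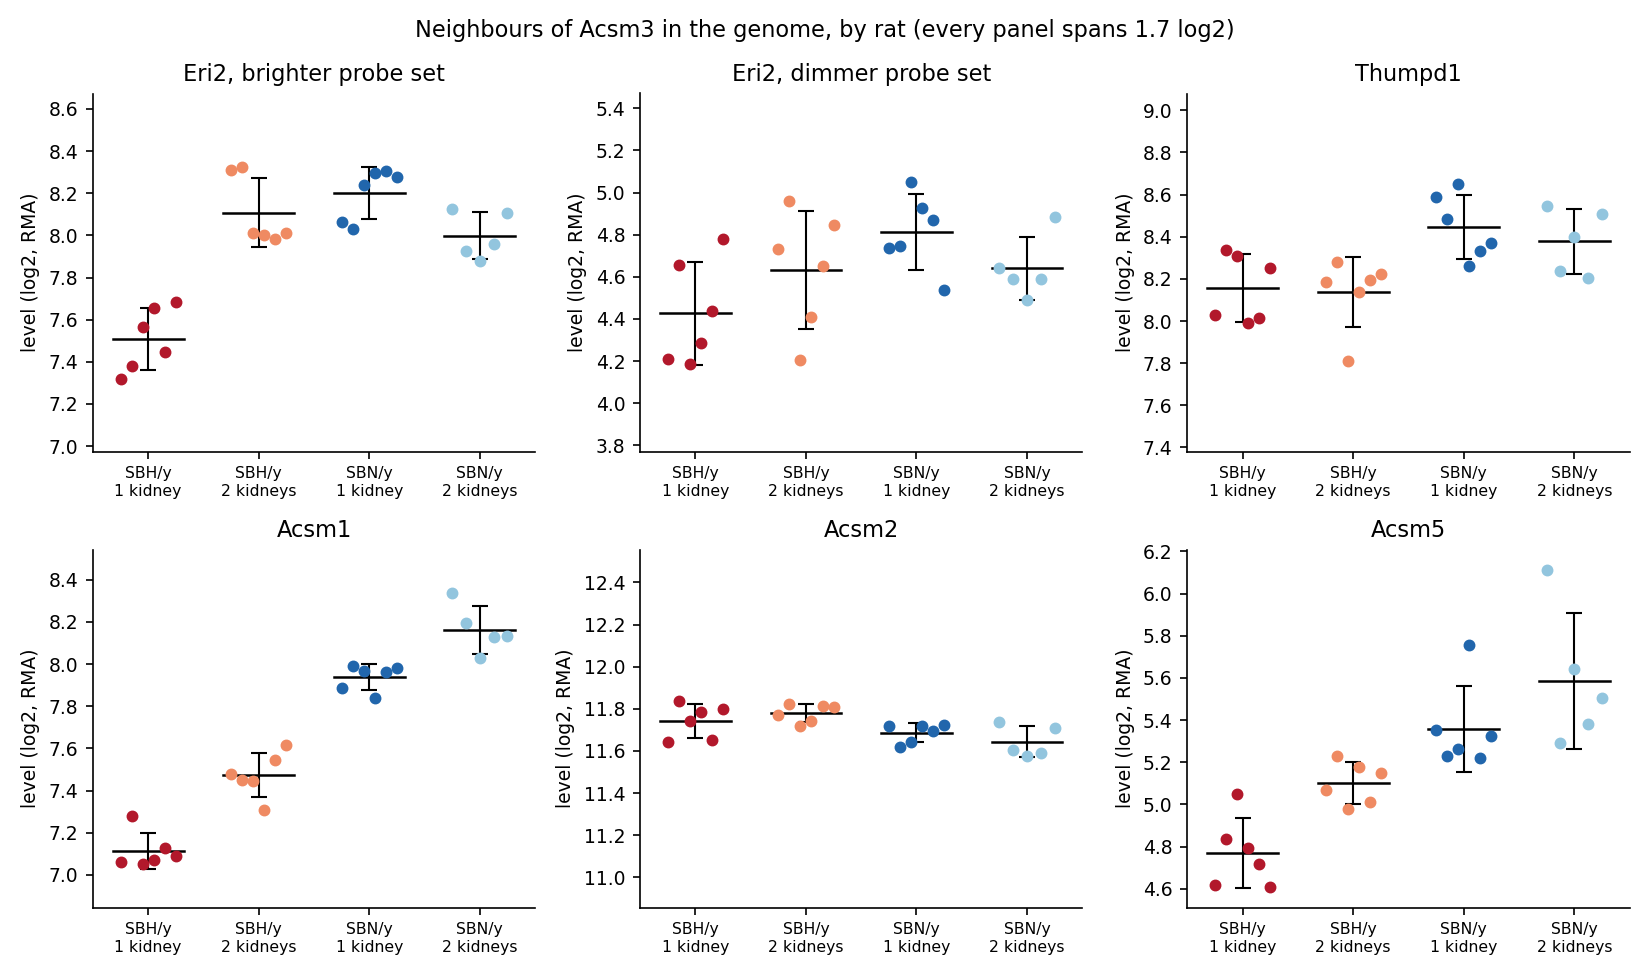
Levels (log2) of 5 neighbouring genes of Acsm3, by rat, with Eri2 shown for both probe sets; points are rats, lines are means and bars ± SD, and each panel spans the same range. The brighter Eri2 probe set is lowest in SBH/y with 1 kidney (7.32 to 7.68), while Acsm1 steps down in SBH/y against SBN/y at both kidney numbers and Acsm2 stays between 11.57 and 11.84.

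Of the ACSM relatives, Acsm1 fell with Acsm3 in SBH/y after uninephrectomy, and Acsm2 and Acsm5 did not pass that test. Acsm1, a butyryl- and medium-chain acyl-CoA synthetase, was lower in SBH/y whether the rats had 1 kidney or 2. It averaged 7.11 ± 0.09 in SBH/y with 1 kidney and 7.94 ± 0.06 in SBN/y with 1 (SD, n = 6 each), a difference of -0.82 ± 0.06 (SE; adjusted p = 2.90e-11 with limma). With 2 kidneys it averaged 7.47 ± 0.10 (n = 6) in SBH/y and 8.16 ± 0.11 (n = 5) in SBN/y, a difference of -0.69 ± 0.06 (adjusted p = 3.17e-09). Uninephrectomy went with a fall of Acsm1 in SBH/y (-0.36 ± 0.06; adjusted p = 0.000253), and the value in SBN/y was -0.23 ± 0.06 (adjusted p = 0.182). Its interaction was -0.13 ± 0.09 (adjusted p = 0.758), so a difference between the strains' responses was not shown for Acsm1.

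Acsm2, which activates medium-chain and benzoic acids, was nearly level. It averaged 11.74 ± 0.08 in SBH/y with 1 kidney and 11.78 ± 0.04 in SBH/y with 2 (SD, n = 6 each), and 11.69 ± 0.04 (n = 6) and 11.64 ± 0.07 (n = 5) in the SBN/y groups with 1 and 2. None of its comparisons passed limma, the nearest being SBH/y minus SBN/y with 2 kidneys (0.14 ± 0.05; adjusted p = 0.106). Acsm5 was dim, at 4.77 ± 0.16 and 5.10 ± 0.10 in SBH/y with 1 and 2 kidneys (SD, n = 6 each; difference -0.33 ± 0.11, adjusted p = 0.0768). It was lower in SBH/y than in SBN/y with 1 kidney (-0.59 ± 0.11; adjusted p = 0.000220) and with 2 (-0.48 ± 0.11; adjusted p = 0.00458). Acsm4 had no named probe set.

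Set against its relatives within the same array, Acsm3 fell relative to Acsm2 but not detectably relative to Acsm1 in SBH/y. The log2 ratio of Acsm3 to Acsm2 was lower by 0.48 after uninephrectomy in SBH/y (change -0.48; exact permutation p = 0.00216, 0.0130 adjusted over 12 tests), and in SBN/y it moved by 0.06 (p = 0.368). Acsm2 was nearly level, so the SBH/y change largely restates the fall of Acsm3. All these ratios were added after the data were examined. The ratio to Acsm1 moved by -0.16 in SBH/y (exact permutation p = 0.206; 0.247 adjusted) and by 0.33 in SBN/y (p = 0.00433; 0.0173 adjusted). In SBN/y Acsm1 itself differed by -0.23 ± 0.06 (SE) and Acsm3 by 0.10 ± 0.07, neither past limma. The larger part of that SBN/y shift thus lay in Acsm1. The ratio to Acsm5 moved by -0.19 in SBH/y (p = 0.158) and 0.33 in SBN/y (p = 0.0671) by the same exact test. Of the 4 measured genes of the family, Acsm3 itself included, 2 fell in SBH/y after uninephrectomy, where 2.4% of 14217 genes were called lower. Besides Acsm3, that was Acsm1 alone. In SBN/y 0 of 4 passed limma, and over all genes 0.253% passed there.

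Acsm3 fell in SBH/y relative to the mean of the proximal tubule genes, whose members went both ways. The mean of 26 measured genes of this list lay between 10.08 and 10.27 in SBH/y with 1 kidney and between 10.14 and 10.23 in SBH/y with 2, and between 10.14 and 10.24 in SBN/y with 1 and 10.10 and 10.21 in SBN/y with 2. The log2 ratio of Acsm3 to that mean was -1.63 ± 0.16 in SBH/y with 1 kidney and -1.14 ± 0.15 in SBH/y with 2 (SD, n = 6 each), a change of -0.49 (exact permutation p = 0.00216; 0.0130 adjusted over 12 tests). In SBN/y the ratio moved by 0.07 (exact permutation p = 0.195). The list mean itself hardly moved, so the change of the ratio in SBH/y largely restates the fall of Acsm3. Lrp2, the megalin gene, differed by -0.02 ± 0.05 (SE) in SBH/y, and Slc34a1, the phosphate transporter gene, by -0.05 ± 0.04, neither past limma. In whole kidney, fewer cells of a type and less RNA per cell cannot be told apart.

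Of the 26 proximal tubule genes, 1 rose and 2 fell in SBH/y after uninephrectomy, with a median difference of -0.02 against 0.00 over all genes, of which 7.16% were called (4.76% higher and 2.4% lower). Slc7a13, an amino acid transporter gene of the late proximal tubule, averaged 11.66 ± 0.11 in SBH/y with 1 kidney and 11.96 ± 0.07 in SBH/y with 2 (SD, n = 6 each; difference -0.29 ± 0.06, SE, adjusted p = 0.00147 with limma), and 12.06 ± 0.05 (n = 6) and 12.15 ± 0.11 (n = 5) in the SBN/y groups with 1 and 2. Anpep, which encodes aminopeptidase N of the brush border, fell by 0.20 (difference -0.20 ± 0.05; adjusted p = 0.0214), a call lost in 4 of 31 alternative fits. Slc7a7, the cationic amino acid exchanger gene named here after its value was seen, rose by 0.25 ± 0.07 (adjusted p = 0.0330). With 1 kidney, 2 genes of the list were higher and 4 lower in SBH/y than in SBN/y (23.1%, where 17.7% of all genes were called). The lower ones were Slc22a12, the urate transporter gene (-0.78 ± 0.11), Slc7a13 (-0.39 ± 0.06), Slc22a7 (-0.38 ± 0.13) and Slc17a3 (-0.18 ± 0.06). The call of Slc17a3 was lost in 13 of 31 alternative fits. The higher ones were Slc5a12 (0.49 ± 0.11) and Slc4a4 (0.31 ± 0.07). Of these genes, all but Slc7a13 and Slc17a3 were named after their values were seen. With 2 kidneys, 3 genes of the list were higher and 2 lower in SBH/y (19.2%, where 11% of all genes were called). Slc5a12 and Slc4a4 were again among the higher ones, and Slc22a12 and Slc7a13 were the lower ones. That 2-kidney call of Slc7a13 was lost in 15 of 31 alternative fits. The values of Slc34a3 (-0.17 ± 0.06) and Slc17a3 (-0.05 ± 0.06) did not pass in SBH/y after uninephrectomy. The interaction passed for 0 of 26 genes and for 0.408% of all genes, a share too small to tell this list from genes at large.

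After uninephrectomy in SBH/y, genes that burn the products of medium-chain activation were called about as often as genes at large. Of 24 measured genes of short- and medium-chain fatty acid oxidation, 1 fell and 0 rose in SBH/y after uninephrectomy (4.17%, where 7.16% of all genes were called and 2.4% were lower), with a median difference of 0.02. The gene that fell was Acadsb, a branched-chain acyl-CoA dehydrogenase, which averaged 5.04 ± 0.56 in SBH/y with 1 kidney and 5.83 ± 0.14 in SBH/y with 2 (SD, n = 6 each; difference -0.80 ± 0.17, SE, adjusted p = 0.00514 with limma). Its groups overlapped, at 4.17 to 5.69 with 1 kidney and 5.62 to 6.05 with 2, and its interaction did not pass (-0.63 ± 0.25; adjusted p = 0.466). Acot12, Acad11, Echs1 and Acat1 differed by -0.24 ± 0.11, -0.10 ± 0.06, -0.14 ± 0.05 and -0.14 ± 0.05 in SBH/y, none past the test.

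With 1 kidney the strains did differ in this list, with 5 genes higher and 5 lower in SBH/y (41.7% of the list). Over all genes 17.7% were called, 10.2% higher and 7.48% lower. The lower ones included Acat1, the acetoacetyl-CoA thiolase gene (-0.35 ± 0.05; adjusted p = 4.58e-06), Echs1, the short-chain enoyl-CoA hydratase gene (-0.28 ± 0.05), and Acad11 (-0.21 ± 0.06), together with Acadsb (-0.84 ± 0.17) and Acadm, the medium-chain acyl-CoA dehydrogenase gene (-0.25 ± 0.06), which was named after its value was seen. The higher ones, also named after their values were seen, were Slc16a1, the monocarboxylate transporter gene (1.09 ± 0.16; adjusted p = 7.79e-06), Eci1 (0.45 ± 0.13), Acaa2 (0.36 ± 0.09), Acot2 (0.26 ± 0.06) and Crot (0.22 ± 0.07). With 2 kidneys 2 were higher and 1 lower, where 11% of all genes were called, 5.5% higher and 5.54% lower. The list had 0 called interactions, where 0.408% of all genes were called.

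Of 19 other acyl-CoA synthetase genes, 1 rose and 1 fell in SBH/y after uninephrectomy (10.5%), with a median difference of -0.04, where 7.16% of all genes were called. Acsl5, for long-chain fatty acids, rose (0.25 ± 0.07; adjusted p = 0.0210 with limma) and Acss2, for acetate in the cytosol, fell (-0.19 ± 0.05; adjusted p = 0.0168). Neither call held in every alternative fit, and 8 and 3 of 31 such fits lost them. Acss1, the mitochondrial acetate enzyme gene, and Slc27a3 differed by -0.13 ± 0.08 and -0.15 ± 0.08 in SBH/y, short of the test. In the glycine conjugation list, 0 of 6 genes passed limma in SBH/y, again beside 7.16% of all genes, with Glyat, the enzyme that joins acyl-CoA to glycine, at -0.13 ± 0.05 (adjusted p = 0.198; unadjusted p = 0.0212). Gldc, Amt and Gcsh of the glycine cleavage system differed by 0.19 ± 0.12, 0.05 ± 0.06 and 0.03 ± 0.06. In SBN/y, 0 genes of either list passed, where 0.253% of all genes did, too small a share to set these lists apart.

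**Figure D3:**
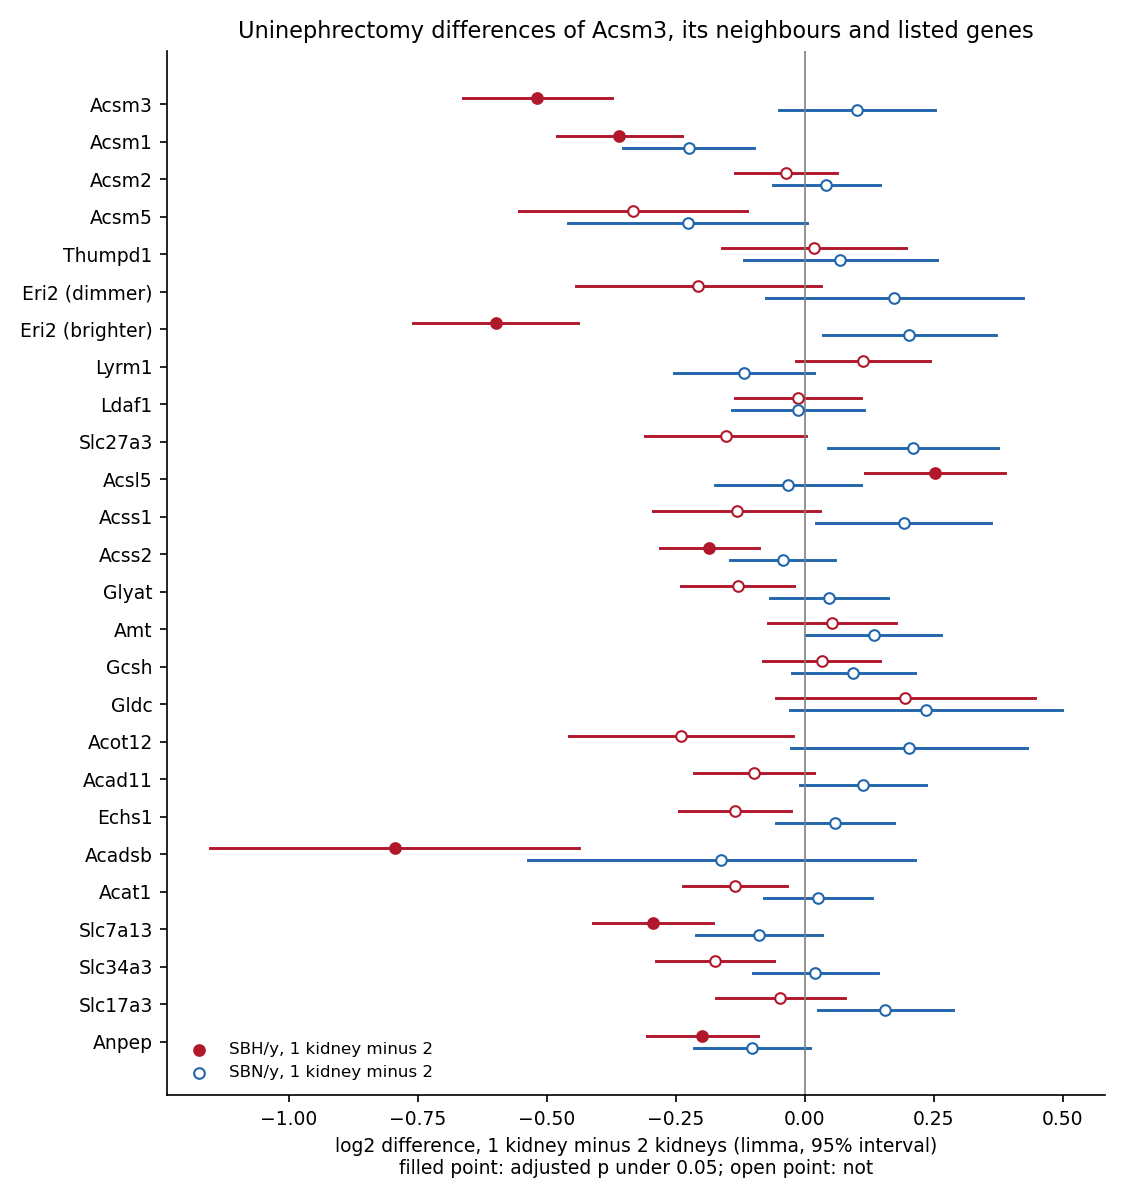
Log2 differences, 1 kidney minus 2, with 95% intervals for Acsm3, its neighbours and the listed genes named in the text, in SBH/y (red) and SBN/y (blue); filled points passed limma at an adjusted p under 0.05 and open points did not. Acsm3 (-0.52) and the brighter Eri2 probe set (-0.60) lie left of 0 in SBH/y and right of 0 in SBN/y (0.10 and 0.20).

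Markers of other cell types differed between the same groups. Of 10 immune cell markers, 8 rose in SBH/y after uninephrectomy, where 4.76% of all genes were higher, and their mean level lay between 6.49 and 6.88 in SBH/y with 1 kidney, above 6.15 to 6.24 in SBH/y with 2, 6.13 to 6.40 in SBN/y with 1 and 6.08 to 6.12 in SBN/y with 2. Havcr1, which marks injured proximal tubule cells, averaged 7.42 ± 0.63 and 4.21 ± 0.29 in the SBH/y groups with 1 and 2 kidneys (SD, n = 6 each), and 5.23 ± 0.60 (n = 6) and 3.86 ± 0.10 (n = 5) in the SBN/y groups. The part of these cells and of injury in the Acsm3 result was not tested. Of 8 markers of the liver, another organ that expresses Acsm3, 6 had a mean under the median probe set in every group, Alb among them (3.40 to 4.03 on all arrays). The other two, Apoh and F2, lay above it and were lower in SBH/y than in SBN/y with 1 kidney (-0.76 ± 0.12 and -0.74 ± 0.13) and with 2 (-0.67 ± 0.12 and -0.84 ± 0.13), while their values after uninephrectomy in SBH/y were -0.07 ± 0.12 and -0.01 ± 0.13. Fgb, one of the 6, rose in SBH/y after uninephrectomy (0.61 ± 0.11; adjusted p = 0.00118 with limma). These 3 genes were named after their values were seen, and the part of such cells in the result was not tested. All 5 measured adrenal cortex markers had a mean under the median probe set in every group. The 5 measured fat tissue markers averaged 4.30 ± 0.13 and 4.33 ± 0.19 in SBH/y with 1 and 2 kidneys (SD, n = 6 each). In SBN/y they averaged 4.61 ± 0.26 (n = 6) and 4.82 ± 0.37 (n = 5). Of the 5, 1 fell in SBH/y after uninephrectomy, where 2.4% of all genes did. Lower in SBH/y than in SBN/y were 1 with 1 kidney and 2 with 2, where 7.48% and 5.54% of all genes were. The part of fat tissue in the Acsm3 result was not tested. Of the kidney markers, Umod read 12.32 to 12.58 and Slc34a1 12.09 to 12.37 over all arrays. The list of the distal nephron and glomerulus moved in the same direction as Acsm3 in SBH/y, with a mean level of 8.63 to 8.85 with 1 kidney and 8.82 to 9.07 with 2, and of 8.68 to 8.86 and 8.75 to 8.91 in the SBN/y groups. Of its 6 measured genes 2 fell in SBH/y, where 2.4% of all genes did: Slc4a1, the anion exchanger gene of intercalated cells (-0.43 ± 0.06; adjusted p = 9.68e-05 with limma), and Nphs1, the nephrin gene of podocytes (-0.42 ± 0.09; adjusted p = 0.00560), both named after their values were seen. Their part in the Acsm3 result was not tested.

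The genes whose profile over the 23 arrays came nearest to that of Acsm3 were sought among 9465 genes brighter than the median probe set. The measure was the mean absolute difference between the log2 values of the pair, each taken from its own mean over arrays. Eri2 was nearest, at 0.0912, where the median gene stood at 0.249 and a flat profile would stand at 0.225. Cryab, a small heat shock protein gene (0.109), the flavin monooxygenase gene Fmo4 (0.114), the cyclophilin gene Ppic (0.115), Uba6, an activating enzyme of ubiquitin (0.117), and the malic enzyme gene Me1 (0.117) came next. These genes and the opposite ones were picked on the same 23 arrays, which share strain and kidney number. Their differences in the direction of Acsm3, or against it, follow from that choice and are given as a description, with no test.

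Cryab averaged 10.20 ± 0.19 in SBH/y with 1 kidney and 10.71 ± 0.06 in SBH/y with 2 (SD, n = 6 each), a difference of -0.51 ± 0.07 (SE). In SBN/y it averaged 10.68 ± 0.10 (n = 6) with 1 kidney and 10.84 ± 0.07 (n = 5) with 2, so that its value there was -0.16 ± 0.07. In SBH/y the differences of Uba6, Me1, Ppic and Fmo4 were -0.40, -0.34, -0.26 and -0.24, and in SBN/y -0.18, -0.03, -0.06 and -0.06.

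The profile turned upside down was matched by Unc93b1, which carries Toll-like receptors to the endosome (0.0898), Fblim1, the gene of migfilin (0.0934), Elf3, an epithelial ETS factor (0.0965), and Psmb10, a subunit of the immunoproteasome (0.0986). Unc93b1 averaged 7.27 ± 0.22 in SBH/y with 1 kidney and 6.81 ± 0.10 in SBH/y with 2 (SD, n = 6 each), a difference of 0.46 ± 0.08 (SE). Fblim1, Elf3 and Psmb10 differed by 0.55 ± 0.08, 0.46 ± 0.07 and 0.46 ± 0.08 in SBH/y. In SBN/y these 4 differed by at most 0.06.

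**Figure D4:**
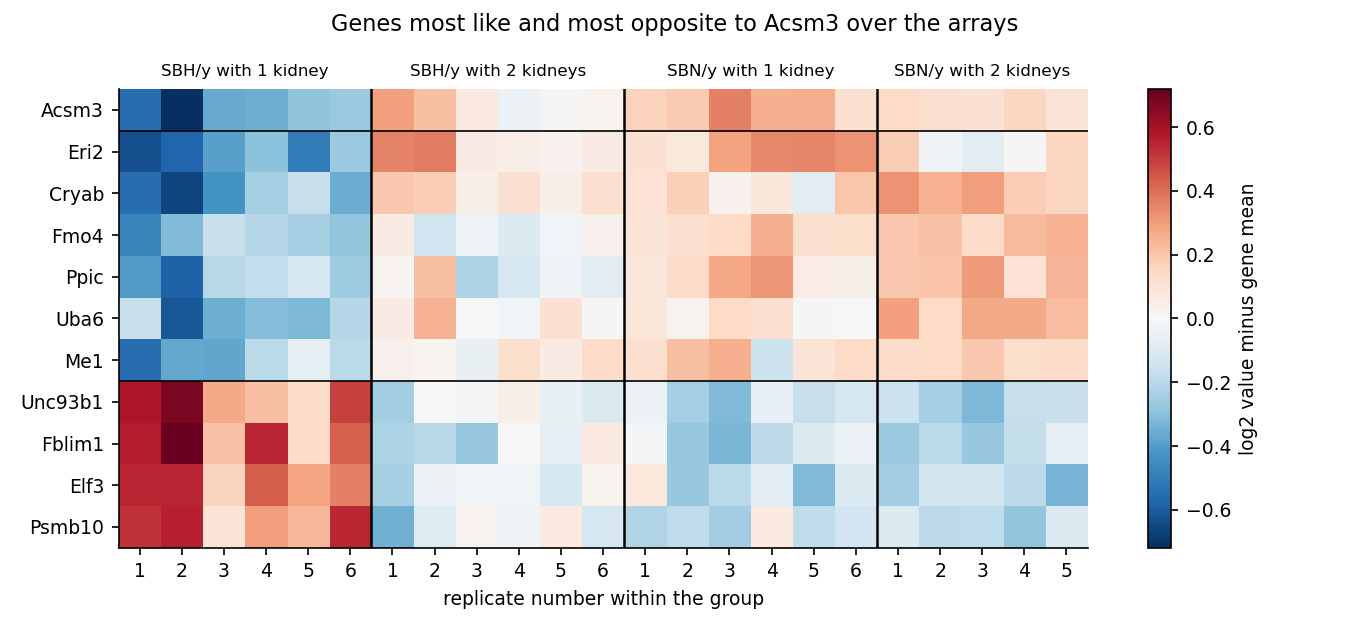
Log2 values of Acsm3, the 6 genes most like it and the 4 most opposite, each minus its own mean over arrays; columns are the 23 arrays in 4 groups with replicate numbers, blue is below and red above the mean. Acsm3 and Eri2 are blue in all 6 SBH/y rats with 1 kidney, and the 4 opposite genes are red there.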

How the data were processed

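The authors hybridised biotin-labelled kidney RNA to Affymetrix arrays and deposited log2 values, 1 per probe set and array, for which the submitters' processing notes name GCOS and RMA without versions. Since RMA sets the arrays to a common distribution, total mRNA cannot be compared between them. Scan dates were not used here, so batches could not be examined. The number of arrays limits the precision.

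Of 31099 probe sets, 57 controls were left out and 31042 tested. The platform's annotation gave 1 symbol for 20826, several for 436 and none for 9780. Of the probe sets with 1 symbol, 20758 had a gene identifier found in RefSeq GRCr8. For a gene with several probe sets the one of highest mean was used (14217 genes). One limma fit (limma 3.58.1, R 4.3.3) with 4 group means gave all contrasts. Tests were two-sided, with Benjamini-Hochberg adjustment over all probe sets and a threshold of 0.05. It was tested on simulated data. Exact permutation tests were run on Acsm3 and on within-array log ratios, the ratios being added after the data were examined.

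Members and lists were chosen with earlier results of these data known. Named by rule were Acsm3, its family, neighbours with a probe set, up to 5 genes of each list by smallest p (3 for the interaction, 2 for SBH/y), the 6 most like and the 4 most opposite genes, and Havcr1, leaving out bare locus symbols. Further list genes were named after their values were seen and are marked so in the text. Alternatives were a repeated quantile normalization, median centring, leaving out dim probe sets, a variance that is robust and follows a trend, only the groups compared, the replicate number as a block, a GAPDH covariate, the next probe set of a list gene, and each array left out.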

Additional observations from a re-analysis of the deposited data

Results flagged for a closer look

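The uninephrectomy difference was more negative in SBH/y than in SBN/y for Acsm3 (-0.62; adjusted p = 0.00402) and for the brighter Eri2 probe set (-0.80; adjusted p = 0.000762), and more positive for Havcr1 (1.83; adjusted p = 0.0110), by the interaction term of the limma fit.

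Single rats stood far from their group, by Dixon's test, in 9 of 148 groups looked at (37 probe sets in 4 groups of rats). Chance marks about 1 in 20 groups, or about 7 here, so the number of marks is near what chance gives. They were, in SBH/y with 1 kidney, Acsm1 in replicate 2 (7.28), Acss2 in replicate 1 (10.71) and Amt in replicate 3 (8.57). In SBH/y with 2 kidneys it was Thumpd1 in replicate 3 (7.81). In SBN/y with 1 kidney they were Acsm5 (5.76), Fmo4 (9.99) and Psmb10 (6.24), all in replicate 4. In SBN/y with 2 kidneys they were Lyrm1 (6.51) and Acadsb (5.81), both in replicate 2. No array stood apart in this way for Acsm3 itself.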

How the results depend on the processing

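The calls of Acsm3 (SBH/y with 1 kidney against 2, strain with 1 kidney, interaction) were kept in every alternative fit run. With each array left out in turn they ran from -0.55 to -0.46, from -0.68 to -0.59 and from -0.65 to -0.56, with limma adjusted p up to 0.000140, 5.89e-07 and 0.0103. The SBN/y difference of 0.10 ran from 0.07 to 0.12 and was 0.20 with the GAPDH covariate (adjusted p = 0.341). The strain difference with 2 kidneys (-0.03) ran from -0.0684 to -0.00118 and turned to 0.0798 with that covariate (adjusted p = 0.609). The cause was not tested. With the replicate block the interaction was -0.62 (adjusted p = 0.0179) and the SBH/y difference -0.52; same-numbered samples share only a number, since their deviations correlated between -0.171 and 0.259, and the block changed no call of Acsm3. No other Acsm3 probe set could be tried.

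List counts were small and moved. For SBH/y after uninephrectomy, other synthetases had 2 calls, 0 with only the groups compared, 1 with the GAPDH covariate, the next probe sets or without the 2 arrays at the ends of the second component (added after seeing the data), and 0 to 3 with arrays left out (0 without replicate 1 of either SBH/y group). Fatty acid oxidation had 1, and 2 with a trended variance or the covariate. The proximal tubule list had 3, 1 with only the groups compared, 1 without replicate 6 and 5 without replicate 3 of SBH/y with 1 kidney. Glycine conjugation had 0, and 1 without that replicate 3. For strain with 1 kidney, other synthetases had 2, and 4 with the dim filter or trended variance. Glycine conjugation had 1, 2 with quantile normalization, the dim filter or trended variance, 3 with the covariate, and 1 to 2 with arrays left out (2 without replicate 1 or 5 of SBH/y or 5 of SBN/y). Fatty acid oxidation had 10, and 6 with the next probe sets. For strain with 2 kidneys, fatty acid oxidation had 3, 5 with quantile normalization, the dim filter or trended variance, and 2 to 5 with arrays left out (5 without replicate 3 of SBH/y with 1 kidney). The proximal tubule list had 5, 8 with trended variance, and 3 to 5 with arrays left out (3 without replicate 1 or 3 of SBN/y or 6 of SBH/y). The ACSM family had 2, or 1 with the covariate. In SBN/y after uninephrectomy the proximal tubule list had 0, or 1 with trended variance. Of 51 called results of the genes named by rule, 11 lost the call in at least 1 fit, and none changed direction. Genes named after their values were seen are not among the 51. By root mean square difference, 4 of the 6 most like and all 4 opposite genes were named again.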

Other observations

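Within groups, Acsm3 did not track injury, tubular genes or RNA quality from rat to rat in a way these few rats could show. In the 6 SBH/y rats with 1 kidney, Acsm3 and Havcr1 had a Pearson r of -0.12 (exact permutation p = 0.842) and a Spearman rho of 0.03 (p = 1), with r = 0.10 without the 2 rats farthest from the median. Against the proximal tubule mean r was 0.40 (exact permutation p = 0.451) and rho 0.20 (p = 0.714), with r = 0.49 without 2 rats. Against the GAPDH measure r was -0.66 (exact permutation p = 0.154) and rho -0.09 (p = 0.919), and r became 0.13 without 2 rats. Over 9 such relations in the 3 groups of 6 rats, the smallest adjusted exact permutation p was 0.758 for r and 0.725 for rho.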
